A study of Homo sapiens with 12 samples.

Results

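The genes of MHC class I antigen presentation were examined in U937 cells, a human AML cell line of myelomonocytic type, exposed to the hypomethylating agent decitabine (DAC), the retinoid all-trans retinoic acid (ATRA), or the combination of these drugs. The 9 genes HLA-B, HLA-C, HLA-E, HLA-F, B2M, TAP1, TAP2, PSMB9 and NLRC5 were taken by gene symbol from the 44786 symbols of the transcript table, and every row carrying one of these symbols was kept. RNA-seq libraries came from untreated cells and from cells given 200 nM DAC, 1 µM ATRA or DAC + ATRA, with 3 libraries per group and 12 in all. By the sample labels every group grew in RPMI medium with 20% FCS and 5 ng/ml human GM-CSF, whereas the study's methods give less serum and name no GM-CSF for its cell lines. The labels also give a medium change and, where used, fresh DAC on each of 3 days of treatment. By the study's methods, ATRA was added with the last DAC dose, so exposure to ATRA was shorter than exposure to DAC. Drug and length of exposure cannot be told apart when ATRA is set beside DAC. The sample descriptions give 72 h for treated and 96 h for untreated cells, whereas the series text names a single harvest at 72 h, so a difference in culture time between untreated and treated cells cannot be told apart from treatment. The libraries are described as technical triplicates of 1 cell line, and p-values therefore measure the spread between these libraries.

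MHC class I molecules display peptides of intracellular proteins to cytotoxic T cells. Each consists of a heavy chain (such as HLA-B and HLA-C, or the less variable HLA-E and HLA-F) and the common light chain beta-2-microglobulin, encoded by B2M. Peptides are cut by the proteasome, in which PSMB9 replaces a constitutive catalytic subunit under interferon, and the transporter formed by TAP1 and TAP2 carries them into the endoplasmic reticulum. NLRC5 is the transactivator of the class I genes, and interferon induces the pathway through factors such as IRF1.

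The class I promoters carry letters that interferon regulatory factors and NF-kB are known to bind, and these are shown here for the genes whose reads allowed a test. RefSeq promoter entries on GRCh38.p14 were found for 7 of the 9 genes, and the 250 bases before the start were searched on both strands for GAANNGAAA (ISRE-like) and GGGNNTTNC (NF-kB-like). Sequences run 5′ to 3′ on the gene's strand, the capitals mark both kinds of match, and bases inside annotated exons of the gene are left out except in the 30-base stretches. The HLA-B stretch is chr6:31357294-31357429, the HLA-C stretch chr6:31272131-31272342 and the TAP1 stretch chr6:32853757-32853786, all on the minus strand. The B2M stretch is chr15:44711383-44711412 on the plus strand.
HLA-B: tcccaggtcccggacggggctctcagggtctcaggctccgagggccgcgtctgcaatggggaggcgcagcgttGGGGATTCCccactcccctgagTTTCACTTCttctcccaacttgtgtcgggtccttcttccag
HLA-C: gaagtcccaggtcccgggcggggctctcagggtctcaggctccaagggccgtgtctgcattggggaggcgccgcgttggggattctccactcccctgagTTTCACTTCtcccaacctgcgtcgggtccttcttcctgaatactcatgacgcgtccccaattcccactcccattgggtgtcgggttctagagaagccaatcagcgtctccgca
B2M: ctgaaaacggGAAAGTCCCtctctctaacc
TAP1: gcctgttcctGGGACTTTCcgagagccccg

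HLA-B held both kinds of match, HLA-C the ISRE-like match alone, and TAP1 and B2M the NF-kB-like match alone. The ISRE-like letters occurred in 6.56% and the NF-kB-like letters in 14.2% of the 35116 windows of equal length. TAP2 was the remaining gene of the 7 with an ISRE-like match, and neither motif was found in the windows of HLA-F and PSMB9. In the 250-base windows, CpG dinucleotides, the sites at which DAC blocks the maintenance of methylation, numbered 17 for HLA-B, 15 for HLA-C, 18 for B2M and 16 for TAP1, beside a median of 11 over all windows. These values are for the TAP1 window nearest PSMB9, its divergent neighbour, with 487 bases between the starts. A second TAP1 window, at the start further into the gene, held 11 CpG and neither motif.

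The reads behind these genes were few and came from unusual transcript rows. Of 424 rows carrying a member's symbol, 83 were placed on a primary chromosome by GENCODE 44 and 341 were not. B2M and NLRC5, which lie outside the MHC, had 18 and 1 of the latter, and the origin of these rows was not determined. Reads were present on 32 rows, 16 of them not placed. The rows held 3204 reads over the 12 libraries, between 172 and 431 per library, while each library counted 8042435 to 10683593 reads in all. Rows that were not placed held 64.7% of the members' reads but 0.728% of all reads in the table.

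Full-length coding transcripts on the primary chromosomes were at or near 0. The counts were 0 in every library for B2M (ENST00000559916), TAP1 (ENST00000354258), HLA-B (ENST00000412585) and NLRC5 (ENST00000262510), none of which has a base outside other transcripts of its strand. They were also 0 for HLA-E (ENST00000376630), which has 1769 such bases, and for PSMB9 (ENST00000374859), which has 266. The 8-exon coding transcript of HLA-F (ENST00000376861) held 1 read. All TAP1 reads fell on a single row that was not placed (ENST00000439781), all HLA-C reads on rows that were not placed, and 371 of the 738 B2M reads on a retained-intron row in its 3′ part (ENST00000623550, chr15:44715817-44718145). Retained-intron rows held 829 and coding rows placed on a primary chromosome held 63 of the members' reads. The values below are therefore levels of small slices of each gene: they are compared between treatments within a gene, and not between genes.

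**Figure D1:**
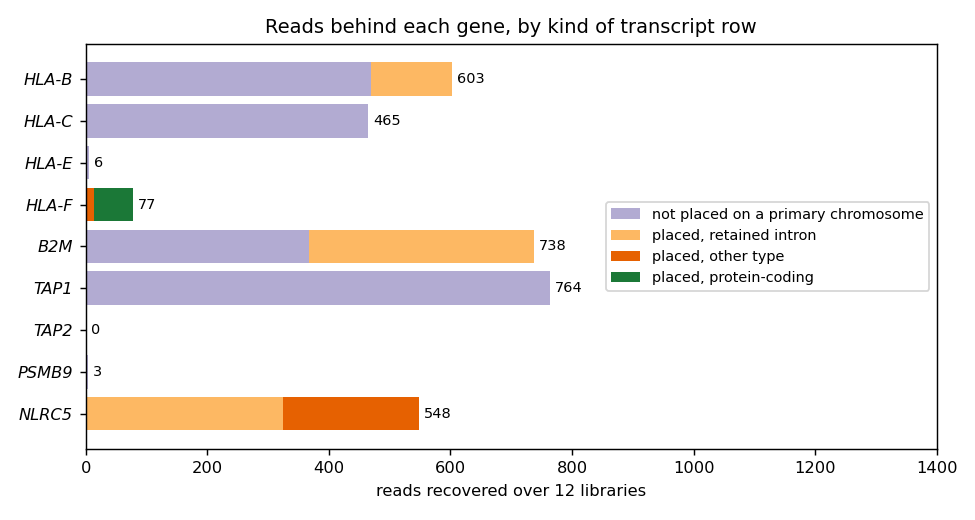
Reads recovered from the deposited values over all 12 libraries (horizontal axis) for each of the 9 genes, split by kind of transcript row. TAP1, HLA-C and most HLA-B reads lie on rows not placed on a primary chromosome, NLRC5 reads on retained-intron and other placed rows, and TAP2 has 0 reads.

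Levels are given as normalised read counts, the reads of all rows of a symbol divided by the library's size factor. A symbol was tested when its sum reached 10 in at least 3 libraries. HLA-B, HLA-C, B2M, TAP1 and NLRC5 passed, each with 10 or more in all 12 libraries, and HLA-E, HLA-F, TAP2 and PSMB9 did not. Changes are log2 fold changes of the normalised read count plus 1 from limma, fitted over 10249 symbols and called at a Benjamini-Hochberg adjusted p under 0.01. The median of all symbols tested was itself 0.13 with DAC and 0.11 with DAC + ATRA on the log2 scale, and 0.01 and 0.02 under edgeR's TMM scaling. The share of higher among called symbols was 70.8% for DAC, 69.3% for ATRA and 65.3% for DAC + ATRA. In the same limma fit with library-size scaling these shares were 59.0%, 54.3% and 54.5%, and edgeR with TMM, in which both test and scaling differ, gave 58.6%, 66.0% and 57.8%.

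With DAC, the transactivator NLRC5 and the transporter gene TAP1 rose, whereas none of the heavy and light chain genes tested passed the threshold. The count was 2 of 5 members called, both higher, against 41.1% of all symbols tested called and 29.1% called higher. With ATRA, 0 of 5 members passed by limma, edgeR or DESeq2, and 2 had an unadjusted p under 0.05, against 9.88% of all symbols called. With DAC + ATRA, 4 of 5 members rose (NLRC5, TAP1, HLA-B and B2M), against 48.2% of all symbols called and 31.5% called higher. That count was 3 by edgeR and 3 by DESeq2, 2 without untreated library 1 or DAC + ATRA library 11 or under either other scaling, 2 with coding rows alone, and 1 without the rows that were not placed. Over the 5 members, the median log2 fold change stood at 0.29 for DAC, 0.37 for ATRA and 0.80 for DAC + ATRA, beside 0.13, 0 and 0.11 for all symbols tested. The 3 treatments share the untreated libraries as their control.

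**Figure D2:**
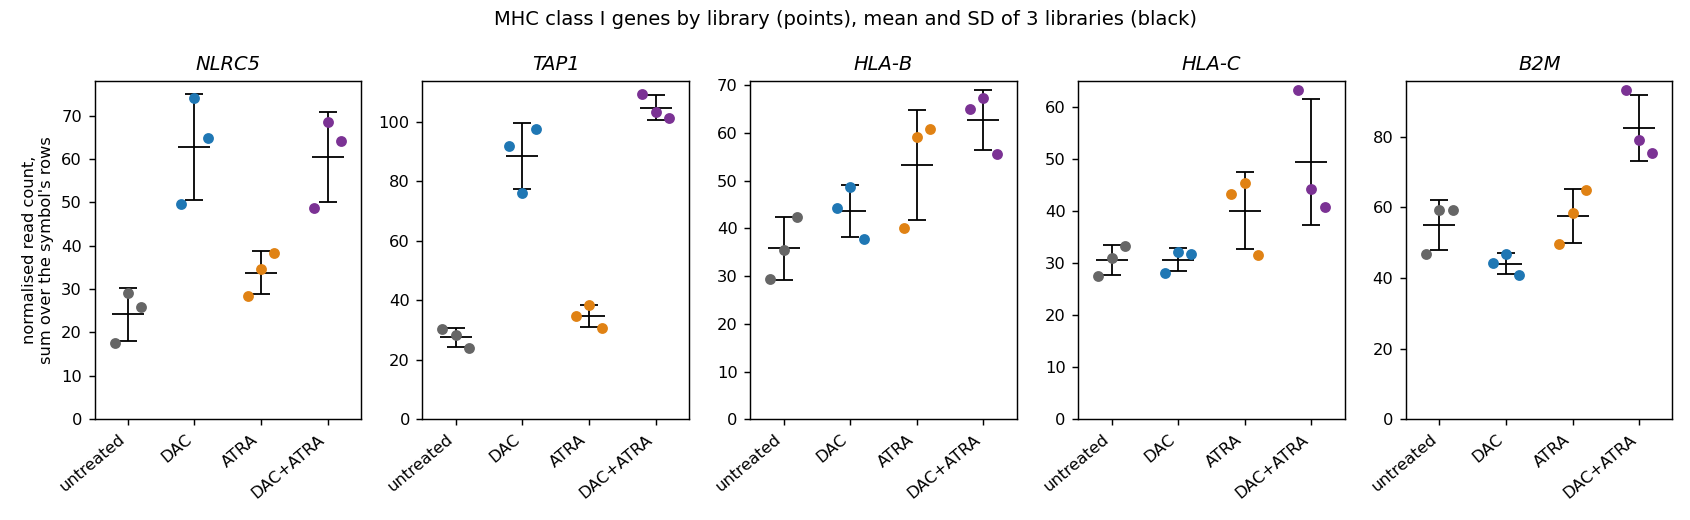
Normalised read count per library (points, vertical axis from 0) of the 5 tested genes in the 4 groups, with the mean and SD of 3 libraries in black. For NLRC5 and TAP1 both DAC-containing groups lie above the untreated and ATRA groups, and for B2M the DAC + ATRA libraries lie above all others.

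NLRC5, the class I transactivator on chromosome 16, was measured at 17.5, 29.1 and 25.9 normalised reads in the untreated libraries. It reached 49.7, 74.0 and 64.7 with DAC, 28.5, 34.6 and 38.3 with ATRA, and 48.8, 68.4 and 64.3 with DAC + ATRA. All libraries with DAC, alone or combined, lay above all libraries without it. The log2 fold change was 1.36 with DAC (SE 0.22, limma adjusted p = 2.9e-05) and 1.31 with DAC + ATRA (SE 0.22, limma adjusted p = 3.5e-05). Adding ATRA to DAC gave a log2 difference of -0.05 with a 95% interval from -0.52 to 0.42. ATRA alone gave 0.49 (limma adjusted p = 0.161), not called, and its libraries overlapped the untreated ones.

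Compared with ATRA, DAC + ATRA raised NLRC5 by 0.82 on the log2 scale (SE 0.22, limma adjusted p = 0.0046). This call was lost when ATRA library 7 or 8 or DAC + ATRA library 11 or 12 was left out, with values of 0.70, 0.84, 0.72 and 0.77 and limma adjusted p between 0.010 and 0.029. It was also lost with library-size scaling (0.74) and with size factors from coding transcripts (0.70). Libraries are numbered 1 to 12 as the columns of the table are, and the numbers do not pair the groups.

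NLRC5 had 548 reads on 10 rows, all placed on chromosome 16, and no coding row among them. A row at the gene's 5′ end (ENST00000543141, chr16:56989563-56992444) gave 0.919, 2.73 and 5.54 normalised reads untreated, 6.49, 17.5 and 13.9 with DAC, and 13.6, 13.7 and 14.8 with DAC + ATRA. All DAC and DAC + ATRA libraries lay above the untreated ones. The ATRA libraries, at 2.11, 5.46 and 7.49, overlapped both the untreated and the DAC libraries. The row reached 10 in 5 libraries, all of them DAC or DAC + ATRA, so it passed the filter only through the groups where it was high, and no test is given for it.

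A retained-intron row within the gene (ENST00000538930, chr16:57041321-57062744), the NLRC5 row with the most reads, gave 8.27, 16.4 and 7.39 normalised reads untreated and 15.1, 15.6 and 16.9 with DAC. In a fit of all 19373 transcript rows that passed the filter, of which 22.2% were called higher with DAC, its log2 fold change with DAC was 0.61 (SE 0.33, limma adjusted p = 0.136), not called, and the untreated library with 16.4 lay among the DAC libraries. Towards the 3′ end, a retained-intron row (ENST00000544189, chr16:57074171-57076851) gave 0.919, 0.910 and 1.85 untreated, 6.49, 9.74 and 10.96 with DAC and 9.04, 9.47 and 7.41 with DAC + ATRA, but reached 10 in 1 library and was not tested. The untreated values of that row stand for 1 or 2 reads each. Its ATRA libraries, at 3.17, 4.55 and 9.16, also lay above the untreated ones and overlapped the DAC libraries. Nearer the 3′ end, the retained-intron row ENST00000543103 (chr16:57080819-57083520) gave 1.84, 2.73 and 7.39 untreated, 7.57, 8.77 and 8.96 with DAC and 9.04, 21.1 and 4.94 with DAC + ATRA. In that row and in ENST00000539881 and ENST00000535658, the DAC libraries lay above the untreated ones and the DAC + ATRA libraries overlapped them.

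**Figure D3:**
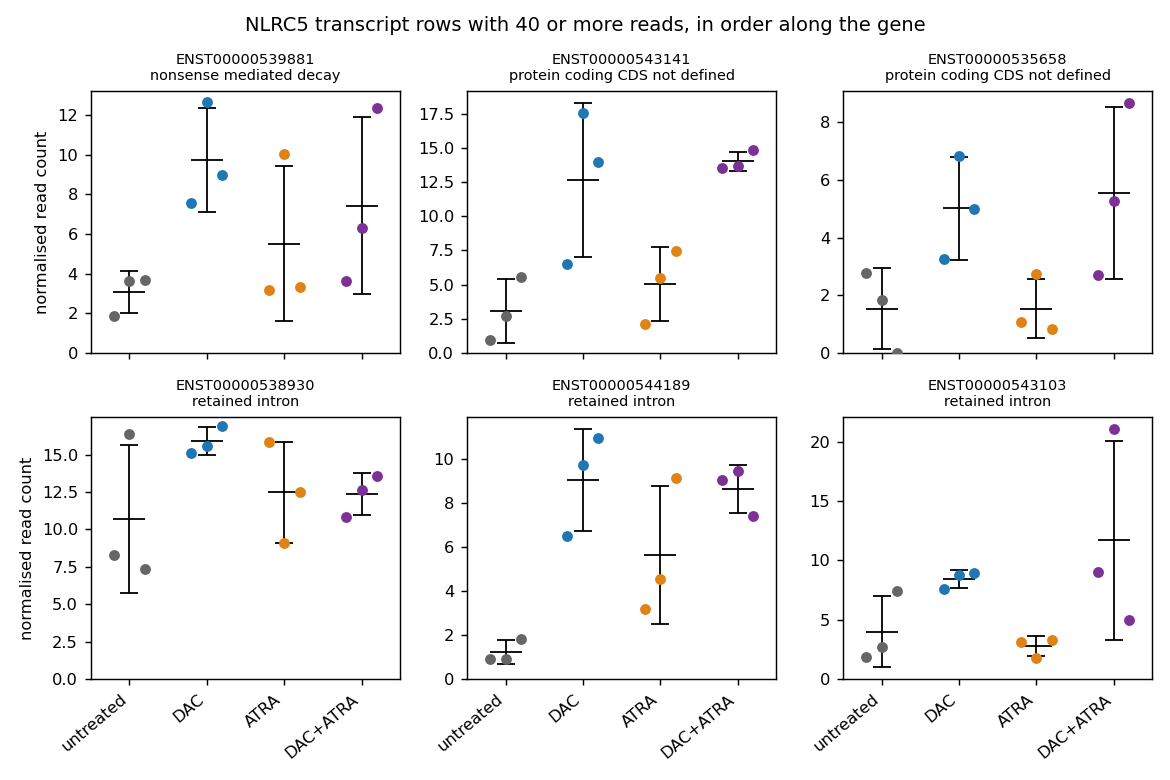
Normalised read count per library (points, each panel with its own axis from 0) of the 6 NLRC5 rows with 40 or more reads, in order along the gene, with the mean and SD of 3 libraries. ENST00000543141 and ENST00000544189 show DAC and DAC + ATRA libraries above the untreated ones, while ENST00000543103, ENST00000539881 and ENST00000535658 do so with DAC alone, and in ENST00000538930 the groups overlap. In ENST00000544189 the ATRA libraries also lie above the untreated ones.

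TAP1, a subunit of the peptide transporter, had the highest fitted log2 fold change of the 5 genes tested with DAC and with DAC + ATRA against untreated cells, though not with ATRA. Its difference from the other genes was not tested. Its normalised read count was 30.3, 28.2 and 24.0 in untreated cells, 91.9, 76.0 and 97.6 with DAC, 34.8, 38.2 and 30.8 with ATRA, and 109, 103 and 101 with DAC + ATRA. Every DAC + ATRA library lay above every DAC library, and every DAC library above all libraries without DAC. The log2 fold change was 1.65 with DAC (SE 0.17, limma adjusted p = 5.5e-08) and 1.89 with DAC + ATRA (SE 0.17, limma adjusted p = 4.6e-09). Against ATRA, DAC + ATRA was higher by 1.57 on the log2 scale (SE 0.17, limma adjusted p = 1.2e-07).

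The further rise of TAP1 from DAC to DAC + ATRA was not called, at 0.25 with a 95% interval from -0.11 to 0.61. With ATRA alone its 3 libraries also lay above the untreated ones, by 0.32 on the log2 scale (limma adjusted p = 0.243, not called), and 15.0% of all symbols had ATRA libraries entirely above the untreated ones. The calls of TAP1 and of NLRC5 against untreated held under edgeR, DESeq2, both other scalings and each left-out library. Because all 764 TAP1 reads lay on one row that was not placed, no TAP1 value could be had from placed rows alone. TAP2, its partner subunit, was listed at 0 on all 37 of its rows in all 12 libraries.

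The classical heavy chain gene HLA-B was at 29.4, 35.5 and 42.5 normalised reads untreated, 44.3, 48.7 and 37.8 with DAC, 40.1, 59.2 and 60.8 with ATRA, and 65.1, 67.4 and 55.6 with DAC + ATRA. DAC + ATRA lay above both the untreated and the DAC libraries, and overlapped ATRA. It rose with DAC + ATRA by 0.80 on the log2 scale (SE 0.20, limma adjusted p = 0.0019). The value was 0.29 with DAC (95% interval -0.14 to 0.71, limma adjusted p = 0.246) and 0.55 with ATRA (95% interval 0.13 to 0.98, limma adjusted p = 0.071), neither called. The DAC + ATRA call was lost without untreated library 1 (0.67, limma adjusted p = 0.0143), without DAC + ATRA library 11 (0.75, limma adjusted p = 0.0108) and without the rows that were not placed (0.62, limma adjusted p = 0.259), as well as with library-size scaling (0.66) and size factors from coding transcripts (0.67).

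HLA-B had 3 rows with more than 2 reads. ENST00000479990, a coding row by symbol that was not placed, held 309 reads and rose with DAC + ATRA by 0.88 on the log2 scale (SE 0.25, limma adjusted p = 0.0052 among 9015 coding transcripts). That call was lost when untreated library 1 or 2 or any DAC + ATRA library was left out, with values from 0.74 to 0.90, and under edgeR (0.75) and DESeq2 (0.90). The placed retained-intron row ENST00000498007 (chr6:31355391-31357179) gave 4.60, 11.8 and 7.39 untreated and 10.8, 15.8 and 9.89 with DAC + ATRA, which overlap.

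HLA-C, the other classical heavy chain gene among the members, was at 27.6, 30.9 and 33.2 normalised reads untreated, 28.1, 32.1 and 31.9 with DAC, 43.3, 45.5 and 31.6 with ATRA, and 63.3, 44.2 and 40.8 with DAC + ATRA. The DAC + ATRA libraries lay above the untreated and DAC libraries, and 1 of them was well above the other 2. DAC + ATRA gave a log2 fold change of 0.65 (SE 0.21, limma adjusted p = 0.0122), just outside the threshold. It was called without ATRA library 9 (0.65, limma adjusted p = 0.0086) or DAC + ATRA library 12 (0.78, limma adjusted p = 0.0094), and fell to 0.46 (limma adjusted p = 0.090) without DAC + ATRA library 10, the highest of the group. With DAC the difference was 0.01 (95% interval -0.44 to 0.45), and its sign turned under edgeR's TMM (-0.12), library-size scaling (-0.12) and size factors from coding transcripts (-0.15), and without untreated library 1 or DAC library 5 or 6.

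The rows of HLA-C differed in size of change. ENST00000490960 went from 7.35, 5.46 and 10.2 normalised reads untreated to 32.5, 13.7 and 16.1 with DAC + ATRA, a log2 fold change of 1.27 (SE 0.37, limma adjusted p = 0.0068) that fell to 0.91 (limma adjusted p = 0.064) without DAC + ATRA library 10. It was also lost without untreated library 1 (1.26, limma adjusted p = 0.0181) or 2 (1.08, limma adjusted p = 0.0357), and under DESeq2 (1.46, adjusted p = 0.0103). ENST00000479546, with 196 reads the HLA-C row with most, gave 12.9, 14.6 and 17.5 untreated and 17.2, 22.1 and 14.8 with DAC + ATRA, a log2 fold change of 0.24 (limma adjusted p = 0.475). The difference between the rows was not tested. HLA alleles share long stretches, so the division of reads between these rows and genes is uncertain.

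B2M, the light chain gene on chromosome 15, was at 46.9, 59.2 and 59.1 normalised reads untreated, 44.3, 46.8 and 40.8 with DAC, 49.6, 58.3 and 64.9 with ATRA, and 93.1, 78.9 and 75.4 with DAC + ATRA. The DAC libraries were the lowest and the DAC + ATRA libraries the highest of the series, each without overlap with the untreated libraries. Compared with DAC, DAC + ATRA raised B2M by 0.89 on the log2 scale (SE 0.17, limma adjusted p = 0.00065), the only member called in that comparison, in which 12.5% of all symbols were called. The call was lost when rows of coding transcripts alone were summed (0.68, limma adjusted p = 0.0365). DAC alone gave -0.31 (95% interval -0.67 to 0.05, limma adjusted p = 0.137) and ATRA alone 0.06 (95% interval -0.30 to 0.42).

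Against untreated cells, B2M rose with DAC + ATRA by 0.58 (SE 0.17, limma adjusted p = 0.0070). This call was lost when any one of the untreated libraries 1, 2 or 3 was left out (0.47, 0.63 and 0.63), when any one of the DAC + ATRA libraries 10, 11 or 12 was left out (0.49, 0.61 and 0.64), and under edgeR (0.49, adjusted p = 0.0214), DESeq2 (0.59, adjusted p = 0.0162) and library-size scaling (0.43, limma adjusted p = 0.056). Against ATRA the difference was 0.51 (limma adjusted p = 0.0188), not called.

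The row of B2M with most reads, the retained-intron row ENST00000623550, gave 22.1, 35.5 and 29.6 untreated, 22.7, 19.5 and 16.9 with DAC, and 50.6, 43.2 and 35.8 with DAC + ATRA. In the fit of all transcript rows it was higher with DAC + ATRA than with DAC by 1.09 (SE 0.25, limma adjusted p = 0.0026), where 5.18% of rows were called higher. The coding row ENST00000633512, which was not placed, gave 8.65, 11.7 and 6.97 with DAC and 15.4, 24.2 and 23.5 with DAC + ATRA, a log2 difference of 1.12 among coding transcripts (SE 0.30, limma adjusted p = 0.0101), just outside the threshold. It was called without DAC library 5 (1.30, limma adjusted p = 0.0079) or DAC + ATRA library 10 (1.32, limma adjusted p = 0.0090). The other coding row tested, ENST00000617605, gave 10.8, 7.79 and 11.95 with DAC and 21.7, 8.42 and 8.65 with DAC + ATRA, which overlap. Its log2 difference was 0.21 (SE 0.41, limma adjusted p = 0.800), not called.

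**Figure D4:**
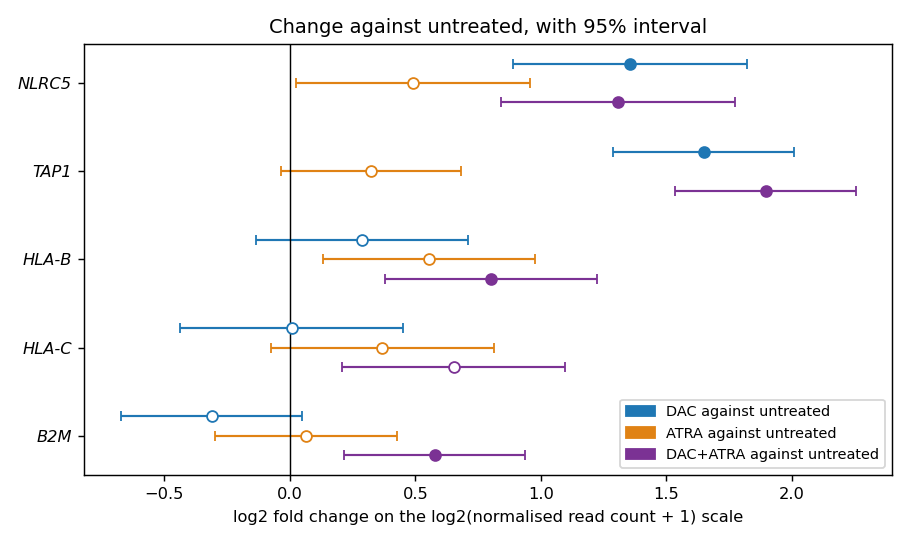
Log2 fold change against untreated cells (horizontal axis) with its 95% interval for the 5 tested genes. Filled points passed an adjusted p under 0.01 in limma and open points did not: NLRC5 and TAP1 passed with DAC and with DAC + ATRA, HLA-B and B2M with DAC + ATRA, and no gene with ATRA.

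Taking the comparisons by group, the 5 genes had DAC + ATRA libraries entirely above the untreated ones in 5 of 5 cases, where 40.6% of all symbols did. Without the rows that were not placed the count was 2, since TAP1 and HLA-C then have no reads and HLA-B overlapped. With DAC the libraries lay above untreated for TAP1 and NLRC5 (39.0% of all symbols) and below for B2M (22.1% of all symbols). DAC + ATRA exceeded DAC without overlap in 4 genes (16.5% of all symbols) and ATRA in 3 (34.5% of all symbols). DAC + ATRA against ATRA called 2 of 5 members, NLRC5 and TAP1, against 36.4% of all symbols. At the level of single coding transcripts, 7 member rows could be tested. Limma called 1 with DAC (39.3% of 9015 transcripts), 3 with DAC + ATRA (46.7%) and 1 for DAC + ATRA against ATRA (34.8%). With DAC + ATRA, edgeR called 2 and DESeq2 1, and limma called 1 without untreated library 1 or 2 or DAC + ATRA library 10 and under either other scaling. It called 0 with ATRA, where 2 had an unadjusted p under 0.05 and edgeR and DESeq2 called 0 (9.14% of transcripts). It also called 0 for DAC + ATRA against DAC, where 2 had an unadjusted p under 0.05, edgeR called 1 and DESeq2 0 (11.3% of transcripts).

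Whether the effect of both drugs differed from the sum of the single effects was tested as the interaction on the log2 scale. No member passed by limma (0 of 5), edgeR (0) or DESeq2 (0), and 1 had an unadjusted p under 0.05, while 2.70% of all symbols were called. That member was B2M, at 0.82 (SE 0.25, limma adjusted p = 0.054), for which the range over the alternatives was 0.51 to 1.14 with adjusted p from 0.023 to 0.415. The interaction was -0.54 for NLRC5 (95% interval -1.20 to 0.12), -0.08 for TAP1 (95% interval -0.58 to 0.43), -0.04 for HLA-B (95% interval -0.64 to 0.56) and 0.28 for HLA-C (95% interval -0.35 to 0.91). Among the 7 coding rows, none was called by limma (0), edgeR (0) or DESeq2 (0), and 0 had an unadjusted p under 0.05, where 2.46% of transcripts were called.

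The nonclassical heavy chain gene HLA-F stayed below the filter. It gave 5.51, 9.10 and 2.77 normalised reads untreated, 8.65, 0 and 3.98 with DAC, 4.22, 3.64 and 4.99 with ATRA, and 9.04, 13.7 and 11.1 with DAC + ATRA, from 77 reads in all. The DAC + ATRA libraries lay above all DAC and all ATRA libraries but overlapped the untreated ones, and no test was run below the filter. Its main row (ENST00000475996, chr6:29725454-29729351) was the only coding row of a member placed on a primary chromosome with more than 3 reads, and held 59. HLA-E, the nonclassical ligand of the NKG2A receptor, had 6 reads over the 12 libraries and PSMB9 had 3. A library's 3 reads equal 2.50 to 3.71 normalised reads, so differences between groups were not detectable for HLA-E and PSMB9 at this depth. Genes that every cell uses were also sparse: the constitutive proteasome subunit genes PSMB5, PSMB6 and PSMB7 had 86, 129 and 21 reads in all, and low values are thus no measure of absent expression.

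Other genes of the pathway were taken from a list of 33, of which 22 could be tested. Of these, 6 were higher and 0 lower with DAC, 6 higher and 0 lower with ATRA, and 10 higher and 1 lower with DAC + ATRA, where 29.1%, 6.85% and 31.5% of all symbols tested were called higher. The counts of lower genes depended on the scaling. Under edgeR with TMM, library-size scaling and size factors from coding transcripts, RFXAP was also called lower with DAC, and NFYB with DAC + ATRA. The last scaling also called NFYB lower with DAC. The medians of the 22 were 0.29, 0.28 and 0.51 on the log2 scale, beside 0.13, 0 and 0.11 for all symbols. These counts include CIITA and HFE, which were below 10 in every untreated and ATRA library and passed the filter only through the groups with DAC. Of the other 20 genes, 4, 6 and 8 were higher, with medians of 0.24, 0.23 and 0.35. By role, and without CIITA and HFE, regulators gave 2, 2 and 3 higher of 9 tested, peptide loading and trimming genes 1, 3 and 3 higher of 6, and heavy chain relatives 1, 1 and 2 higher of 4, for DAC, ATRA and DAC + ATRA in turn. The regulators called with ATRA were IRF1 and IRF2. The IRF2 call with ATRA (0.38, limma adjusted p = 0.0095) was lost when any one library other than ATRA library 9 was left out (limma adjusted p from 0.011 to 0.048), with library-size scaling and without the filter. IRF2 was also called with DAC (0.80, limma adjusted p = 6.5e-07) and with DAC + ATRA (1.00, limma adjusted p = 1.7e-08). Against ATRA, DAC + ATRA raised IRF2 by 0.62 (limma adjusted p = 2.1e-05). Of the 7 proteasome genes, 1 could be tested, PSMB6, and it was not called. None of the 22 passed in the interaction by limma (0), edgeR (0) or DESeq2 (0), and 3 had an unadjusted p under 0.05.

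IRF1, an interferon-induced activator of class I genes and of NLRC5, was at 73.5, 74.6 and 76.7 normalised reads untreated, 137, 153 and 156 with DAC, 540, 484 and 434 with ATRA, and 760, 884 and 864 with DAC + ATRA. The 4 groups did not overlap. Its log2 fold change was 0.98 with DAC (SE 0.12, limma adjusted p = 3.7e-07), 2.68 with ATRA (SE 0.12, limma adjusted p = 1.7e-13) and 3.46 with DAC + ATRA (SE 0.12, limma adjusted p = 2.7e-16). Against ATRA, DAC + ATRA raised IRF1 by 0.78 (SE 0.12, limma adjusted p = 8.6e-06). NLRC5 and TAP1 had their higher values in both groups with DAC, and IRF1 in both groups with ATRA. A link between IRF1 and these genes was not tested.

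CIITA, the relative of NLRC5 that controls MHC class II genes, and HFE, a heavy chain relative that acts in iron uptake, had the highest fitted values of the list with DAC + ATRA. Their order was not tested, and with untreated values this low it rests on the added 1. CIITA was at 2.76, 1.82 and 3.69 normalised reads untreated, 23.8, 21.4 and 25.9 with DAC, 4.22, 4.55 and 7.49 with ATRA, and 53.3, 71.6 and 70.4 with DAC + ATRA. HFE was at 0, 0 and 0.924 untreated, 10.8, 19.5 and 16.9 with DAC, 0, 0.910 and 1.66 with ATRA, and 14.5, 27.4 and 18.5 with DAC + ATRA. Both genes were higher in every library with DAC than in any without it, and no test is given because the filter kept them through those libraries alone. The lowest value was that of RFXAP, a subunit of the RFX complex at MHC promoters, which fell from 220, 232 and 212 normalised reads untreated to 135, 142 and 135 with DAC + ATRA, a log2 fold change of -0.69 (SE 0.12, limma adjusted p = 3.4e-05). RFXAP was at 177, 175 and 164 with DAC (-0.36, limma adjusted p = 0.0138) and at 181, 191 and 164 with ATRA (-0.31, limma adjusted p = 0.082). Neither was called, and both groups lay below the untreated libraries.

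**Figure D5:**
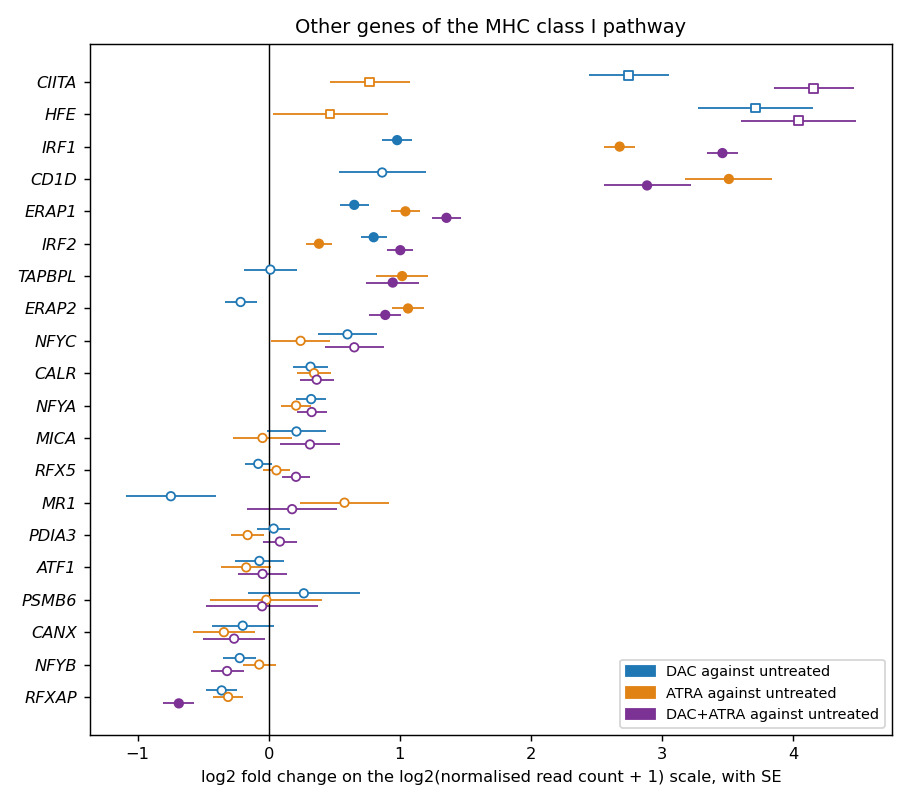
Log2 fold change against untreated cells with its SE (horizontal axis) for 20 of the 22 other pathway genes tested, ordered by the value with DAC + ATRA. Filled points passed an adjusted p under 0.01 in limma; open squares mark CIITA and HFE, which passed the filter only through the groups with DAC. RFXAP is lowest with DAC + ATRA, and IRF1 is higher with ATRA and DAC + ATRA than with DAC.

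The symbols whose profiles over the 12 libraries were most like those of a member were described by Pearson's r of the log2 values among 10244 symbols. For TAP1 they were HYAL1, SV2A and HIST1H2BK (each r = 0.988), and for NLRC5 they were NATD1 (r = 0.983), VMAC (r = 0.964) and ZNF77 (r = 0.961). HLA-B was most like TTC39B (r = 0.929), SP100 (r = 0.916) and SRGAP1 (r = 0.911). HLA-C was most like TSC22D3 (r = 0.891), CHMP4A (r = 0.856) and PTGES (r = 0.849), and B2M most like NINL (r = 0.929), NDUFB2 (r = 0.924) and OSBPL7 (r = 0.911). The points share libraries, treatments and size factors, so these values describe and do not test.

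The identity of the cells was checked by marker genes. All 10 myelomonocytic markers had reads and 9 passed the filter, with a summed level of 51843 to 57839 normalised reads untreated, 23693 to 36053 with DAC, 30255 to 41302 with ATRA and 20126 to 21512 with DAC + ATRA. Nearly all of the untreated sum was MPO, a granule enzyme of immature myeloid cells, at 49477 to 55620. With DAC + ATRA, MPO was at 14274 to 15535, a smaller part of the sum. The markers of the list went both ways. The granulocyte receptor gene CSF3R was lower as well, at 555 to 693 untreated and 408 to 473 with DAC + ATRA, while for CD33, SPI1 and FCGR1A the untreated and DAC + ATRA libraries overlapped. FCGR1A was highest with DAC (202 to 252, against 139 to 183 untreated) and SPI1 with ATRA (156 to 181, against 117 to 137 untreated). The integrin gene ITGAM was at 194 to 218 untreated and 2659 to 2870 with DAC + ATRA, the integrin gene ITGB2 at 105 to 171 and 532 to 559, and the lysozyme gene LYZ at 155 to 181 and 954 to 1178. The erythroid gene HBB was at 0, and the epithelial genes EPCAM and KRT19 summed to 0 in every untreated and ATRA library, 3.24 to 9.96 with DAC and 2.47 to 8.42 with DAC + ATRA. Further markers of other cell types also moved with the treatments that raised TAP1 and NLRC5. The fibroblast genes COL1A1 and PDGFRB, both with reads, summed to 25.5 to 47.1 untreated, 472 to 503 with DAC, 113 to 121 with ATRA and 393 to 455 with DAC + ATRA. The 3 T cell markers summed to 2.76 to 10.2 untreated, 295 to 388 with DAC, 4.55 to 7.39 with ATRA and 122 to 176 with DAC + ATRA, nearly all from CD2, while CD3D and CD3E were at or near 0. The 3 B cell markers summed to 133 to 143 untreated, 519 to 533 with DAC, 229 to 374 with ATRA and 1315 to 1394 with DAC + ATRA, nearly all from CD79A, with MS4A1 near 0. The part of these markers in the results was not tested. In such bulk RNA, fewer expressing cells and less RNA per cell cannot be told apart.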

How the data were processed

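RNA-seq values of 12 U937 libraries, 3 per group, were used. Per the labels and the study's methods, the authors depleted ribosomal RNA, made stranded paired-end libraries, aligned reads to hg38 with STAR and counted them per transcript with HTSeq; versions, annotation release, counting mode and strand setting are not given in the sources used here. The deposited values are a signal: read counts per transcript divided by 1 size factor per library, as DESeq2 gives. All values were whole multiples of the library's step within 0.001 of a read (100%), and the reads were recovered from it. Size factors ran from 0.809 to 1.20, and 3 reads, the floor used, cover counting error only. Of the table's 197782 rows, 68785 had a read, and GENCODE 44 held the identifiers of 174768.

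Rows were summed per symbol, and rows that were not placed counted as coding by their symbol only. Symbols with a coding transcript, and coding transcripts, with at least 10 in 3 libraries were tested on log2(value + 1) with limma 3.58.1 (trend, robust; 12 libraries, 4 groups), and adjusted over all features. The alternatives were edgeR 4.0.16 with TMM and DESeq2 1.42.0 on the recovered reads, other scalings, filters, rows and pseudocounts, and leaving out each library. On simulated reads for 10249 symbols with 200 changed in the DAC comparison, limma found 92% of 4-fold and 63% of 2-fold changes, with 5 false calls among 160. The simulation used a fixed dispersion and all expression levels, and far fewer symbols changed than the 41.1% called with DAC. Its rates are therefore not those of the members. Replicate pairs differed by more than sampling noise (chi-square per degree of freedom 2.83 to 13.9). Named genes were the 9 members, the highest and lowest of the pathway list, those a member's result turned on, and the 3 symbols most like each member. The members and lists were chosen with earlier results of these data known. IRF1 and the proteasome subunits were picked from the pathway list as a named regulator and reference genes, and HFE, IRF2, NFYB and single myelomonocytic markers were named after their values were seen. Values of some genes of the list are not reported here. R 4.3.3 and Python 3.11.15 were used.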

Additional observations from a re-analysis of the deposited data

How the results depend on the processing

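No paired analysis was possible because the columns of the table carry no replicate numbers. All calls of TAP1 against untreated and against ATRA, and of NLRC5 against untreated, held wherever they could be computed. With library-size scaling or size factors from protein-coding transcripts, member genes called fell to 2 for DAC + ATRA against untreated and to 1 against ATRA, and member transcripts called went to 1 for DAC + ATRA against untreated and to 1 against DAC. Summing rows of protein-coding transcripts only left 1 member gene for DAC, 2 for DAC + ATRA, 0 against DAC and 1 against ATRA, where NLRC5 has no such row with reads and B2M loses its retained-intron row. Without rows placed on no primary chromosome, 1 member gene was called for DAC, 1 for DAC + ATRA and 1 against ATRA, where TAP1 has no placed row with reads and HLA-B and B2M missed the threshold with DAC + ATRA (limma adjusted p = 0.259 and 0.047), and 2 genes had DAC + ATRA libraries without overlap with untreated, an alternative chosen after seeing the data. DESeq2 called 1 member transcript with DAC + ATRA, and edgeR called 1 against DAC. Testing all rows gave 2 member transcripts with DAC and 1 against DAC. The transcript gained with DAC was the NLRC5 row ENST00000543141. It passed the filter only through the groups where it was high, so its call is not used as a result. At an adjusted p under 0.05 there were 2 member genes and 1 transcript against DAC and 11 other pathway genes with DAC. These 11 include CIITA and HFE, which passed the filter only through the groups with DAC, and RFXAP, which was lower. Requiring 10 in every library left 7 other pathway genes with DAC + ATRA, since low genes leave the fit.

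Leaving out each library in turn gave 2 to 5 member genes called with DAC + ATRA, 1 to 2 against ATRA, 1 to 3 member transcripts with DAC + ATRA and 0 to 1 against DAC. The member genes fell to 2 with DAC + ATRA without untreated library 1 or DAC + ATRA library 11, and to 1 against ATRA without ATRA library 7 or 8 or DAC + ATRA library 11 or 12. The member transcripts fell to 1 with DAC + ATRA without untreated library 1 or 2 or DAC + ATRA library 10. No called value changed sign. Of 1590 single values recomputed, 1537 kept their side of the threshold, 41 lost and 12 gained a call; the cause was not tested. With 19 to 121 reads per library behind each tested gene, small changes were not detectable, and the filter left 4 of the 9 genes without a test.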
